A study of Mus musculus with 16 samples.

Results

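The miR-297, miR-466, miR-467 and miR-669 families are the mouse microRNAs (miRNAs) of a large cluster inside an intron of Sfmbt2, and they were followed here across blastocyst fragments under 3 conditions. Members were all names in the count files that begin with miR-297, miR-466, miR-467 or miR-669, whatever the letter, copy number or arm. This gave 80 of 1978 mature names. Of these, 35 had a count in at least 1 of the 16 libraries and 45 had none. Together they held 2807 of 122251 counts, or 2.296%.

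Small RNA was sequenced from mouse blastocysts that had been divided by laser into 2 pieces, a polar one with the inner cell mass and a mural one made of trophectoderm. WT blastocysts were taken at E4.5 (2 polar and 2 mural libraries) and blastocysts in natural diapause in vivo at EDG 7.5 (3 and 3 libraries). Blastocysts paused with an mTOR inhibitor, called mTORi here, gave 3 polar and 3 mural libraries. The labels name neither the inhibitor nor the day of the mTORi blastocysts, so treatment cannot be told apart from age in any comparison of treatments. They give no strain, and they do not say how many embryos a library holds or whether same-numbered polar and mural libraries share embryos, so p-values measure the spread between these libraries, which may be technical. For the 3 mural mTORi libraries the part comes from the tissue label and the column headers, since it is missing from their titles.

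A miRNA is cut from a hairpin precursor, from which either the 5′ arm (5p) or the 3′ arm (3p) can be kept as the mature strand, and its bases 2 to 8, the seed, pair with target mRNAs. Sfmbt2 encodes a Polycomb-group protein and is imprinted in mouse extraembryonic tissue, where it is expressed from the paternal allele and is needed for trophoblast and placenta. The miRNA cluster in its intron arose by tandem duplication in rodents, so many of its hairpins are near-identical copies that give the same mature miRNA.

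Of the 80 names, 8 had a mature sequence in the RefSeq table of GRCm38.p6. All 8 are encoded outside Sfmbt2 and none is a miR-297 name, so they show the repeat-like composition of these 8 only. The 4 with a count, and the 2 without any that share the longest run of alternating C and A, are given 5′ to 3′ with the seed in capitals.
miR-466i-3p: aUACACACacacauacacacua
miR-466j: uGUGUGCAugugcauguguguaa
miR-466k: uGUGUGUGuacauguacauguga
miR-467g: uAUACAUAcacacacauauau
miR-466q: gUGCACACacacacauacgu
miR-467f: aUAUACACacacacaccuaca
They map to chr13:17747552-17747573, chr10:60960802-60960824 and chr3:85467396-85467418 on the plus strand, to chr5:34732872-34732892 on the minus strand, to chr3:28419988-28420007 on the plus strand and to chr11:69635419-69635439 on the minus strand, in that order. The runs of alternating C and A, or of alternating U and G, were 7 to 12 nt long in the 8 sequences. ACACACAC or UGUGUGUG occurred on the mature strand in 6 of the 8, against 5 of the 1671 other mature miRNAs in the table (0.299%). No seed was shared between any 2 of the 8. The other sequences with no count were miR-467h and miR-669n. Mature sequences of the abundant members in the Sfmbt2 intron are not printed here.

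The families had 81 precursor genes in GRCm38, of which 71 lay within Sfmbt2 (chr2:10370510-10595253) on its plus strand. All 71 fell in intron 11 (chr2:10461473-10523944) of a Sfmbt2 transcript of 23 exons, and none overlapped an exon. They spanned 51617 bp, from chr2:10466663 to chr2:10518279. The 66 names whose every precursor is in Sfmbt2 held 2603 counts, or 92.732% of the members' counts. A further 5 names have precursors both in and outside Sfmbt2, and only miR-466f-3p among them was detected, with 191 counts (6.804%). It comes from Mir466f-1, Mir466f-2 and Mir466f-3 in Sfmbt2 and from Mir466f-4 at chr13:71107089-71107209, and the counts cannot be divided among these copies. The 9 names encoded wholly outside Sfmbt2 held 13 counts.

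Counts came almost wholly from names with 1 precursor. Such names numbered 61, of which 33 were detected with 2613 counts. Of the 19 names with 2 or more precursors only 2 were detected, miR-466f-3p and miR-466b-3p, the latter with 3 counts from 8 precursors. Both arms of miR-467a, with 10 precursors, and of miR-669a, with 12, were at 0 in every library. How the authors' counting treated reads that match several copies is not given in the sources used here, so a 0 for these names is not a measurement that the copies are silent.

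Along the intron, counts were found at the 2 ends. The cluster was divided into 3 stretches of equal length. In the first (chr2:10466663-10483868), 12 of 24 single-precursor names were detected, with 12.5% of the members' counts. In the last (chr2:10501074-10518279), 17 of 28 were detected, with 80.1%. All 19 precursors of the middle stretch carry names shared by copies, so no single-precursor name could be counted there. Names shared by copies are left out of these shares. Among them is miR-466f-3p, with 6.80% of the members' counts, whose copies in Sfmbt2 (Mir466f-1, Mir466f-2 and Mir466f-3) all lie in the first stretch.

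**Figure D1:**
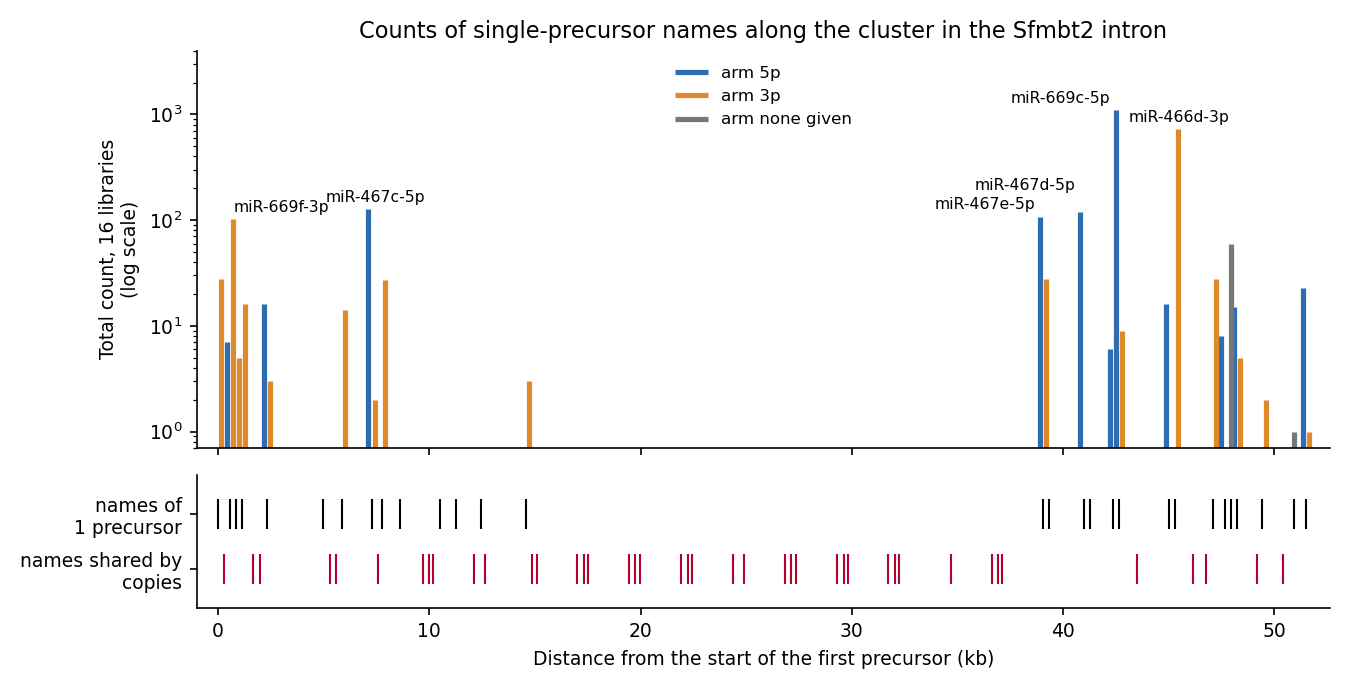
Counts along the Sfmbt2 intron. The upper panel shows the total count of each detected single-precursor name over 16 libraries on a log axis against the distance in kb from the first precursor, coloured by arm, with bars of the 2 arms set slightly apart. The lower panel marks precursors whose names are unique and those whose names are shared by copies. miR-669c-5p (1092 counts) and miR-466d-3p (728 counts) stand near the far end, and the middle holds shared names only.

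A few members held most counts. miR-669c-5p (precursor chr2:10509296-10509404) had 1092 counts, 38.903% of the members' total, and ranked 21 among all 1978 names. miR-466d-3p (chr2:10511967-10512062) had 728 counts, or 25.935%. These neighbours in the last stretch of the cluster made up 64.838% together. miR-466f-3p followed with 6.80% of the members' counts, miR-467c-5p (chr2:10473931-10474027) with 4.56%, miR-467d-5p (chr2:10507630-10507714) with 4.28%, miR-467e-5p (chr2:10505721-10505807) with 3.85%, miR-669f-3p (chr2:10467229-10467349) with 3.63% and miR-466g (chr2:10514595-10514674) with 2.10%. The top 8 held 90.061% of the members' counts. miR-466m-3p, miR-466n-3p and miR-467e-3p had 28 counts each, miR-669a-3-3p 27, miR-669h-5p 23, and miR-297b-5p and miR-669b-3p 16 each. The remaining 20 detected members shared 113 counts, and 12 of the 35 detected members had 1 to 5 counts in all.

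By family, miR-669 names held 1310 counts (13 of 30 names detected), miR-466 names 1085 (13 of 31), miR-467 names 390 (7 of 13) and miR-297 names 22 (2 of 6). The arm that was counted differed by family. miR-466 names gave 1007 counts from 3p and 15 from 5p, whereas miR-467 names gave 356 from 5p and 33 from 3p, and miR-669 names gave 1146 from 5p and 163 from 3p. Single precursors were mostly one-sided. For Mir669c, 5p took 1092 counts and 3p took 9, a 5p share of 99.183% (95% exact Clopper-Pearson interval 98.454 to 99.626%). For Mir466d, 5p took 0 and 3p took 728, which allows a 5p share of up to 0.505% at the same confidence. Mir467e was less one-sided, with 108 counts from 5p and 28 from 3p (79.412%, 71.637 to 85.862%). Mir669f was the abundant miR-669 precursor with the opposite arm, at 7 from 5p and 102 from 3p. These intervals, and those below, cover counting error only.

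Before the values by library, the depth and the make-up of the libraries have to be given. Library totals ran from 1744 to 20051 counts. The miR-302 and miR-367 names, typical of epiblast, had 32 counts, all in polar libraries but only 2 of them in polar mTORi. The miR-322, miR-351 and miR-503 names, which marked the mural pieces in earlier results of these data, took 0.4014 to 1.9689% of each polar library and 2.6294 to 7.5369% of each mural one. Names of the Dlk1-Dio3 region were at 547 counts in polar and 11 in mural libraries. Polar mTORi replicate 3 stood apart from the other libraries of its group. Its counts differed from those of replicates 1 and 2 by 21.671 and 16.912 times what sampling alone would give (chi-square over its degrees of freedom), and those of replicates 1 and 2 from each other by 4.04 times. Its miR-203 and miR-205 names, markers of stratified epithelium, took 25.8212% of its counts. In the other 15 libraries they took at most 1.8315%. Of the other cell type lists, erythroid names took 2.4291% of polar WT replicate 2 and at most 0.2747% of any other, while leukocyte names took at most 0.3663%, stromal names 0.3205%, liver names 0.1832% and endothelial names 0.1216% of any library. Muscle names had 3 counts in all and neural names 0. The part of these signals in the results below was not tested.

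The summed share of the 4 families was highest in the polar pieces of diapaused blastocysts. It was 3.25% ± 0.047 of all miRNA counts there (mean ± SD, n = 3 libraries), with single libraries at 3.20, 3.28 and 3.28%. The next highest of all 16 libraries was mural WT replicate 2, at 2.96%. The mural pieces of diapaused blastocysts stood lower, at 2.01, 1.88 and 1.79% (1.89% ± 0.109, n = 3). The shares of the polar and the mural diapaused libraries did not overlap, and neither did their 95% Wilson intervals, which ran from 2.93 to 3.67% in the polar and from 1.59 to 2.27% in the mural libraries. The size of this gap depended on the scaling. With the members' counts divided by the TMM-scaled totals used in the tests below, a setting chosen after the data were seen, the polar diapaused libraries stood at 3.09, 3.16 and 2.81% and the mural ones at 2.54, 2.31 and 2.22%. The 2 groups still did not overlap, but polar diapaused replicate 3 then lay below mural WT replicate 2, at 2.97%.

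In WT blastocysts the order was not the same. Polar WT gave 2.69 and 1.74% (2.22% ± 0.675, n = 2) and mural WT 2.32 and 2.96% (2.64% ± 0.459, n = 2), so the 2 parts overlapped. These polar libraries were among the shallower ones, with 47 member counts of 1744 and 86 of 4940, and their intervals ran from 2.03 to 3.57% and from 1.41 to 2.14%.

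After mTOR inhibition the shares were the lowest by group mean. Polar mTORi gave 2.19, 1.47 and 0.800% (1.48% ± 0.695, n = 3), from 67, 32 and 28 member counts. Mural mTORi gave 1.53, 1.91 and 1.32% (1.59% ± 0.300, n = 3), from 67, 69 and 46. All 3 mural mTORi libraries lay below both mural WT libraries, and all 3 polar mTORi libraries lay below the 3 polar diapaused ones. Polar mTORi and polar WT overlapped, as did mural mTORi and mural diapaused. The lowest share of the 16 belonged to polar mTORi replicate 3, the library with 25.8212% of stratified epithelial names, and without it the polar mTORi mean was 1.83%. By group mean the order was polar diapaused, mural WT, polar WT, mural diapaused, mural mTORi and polar mTORi. After the first step of that order, every pair of neighbours overlapped in single libraries. In fragments of tissue, fewer cells of a type and less miRNA per cell cannot be told apart.

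**Figure D2:**
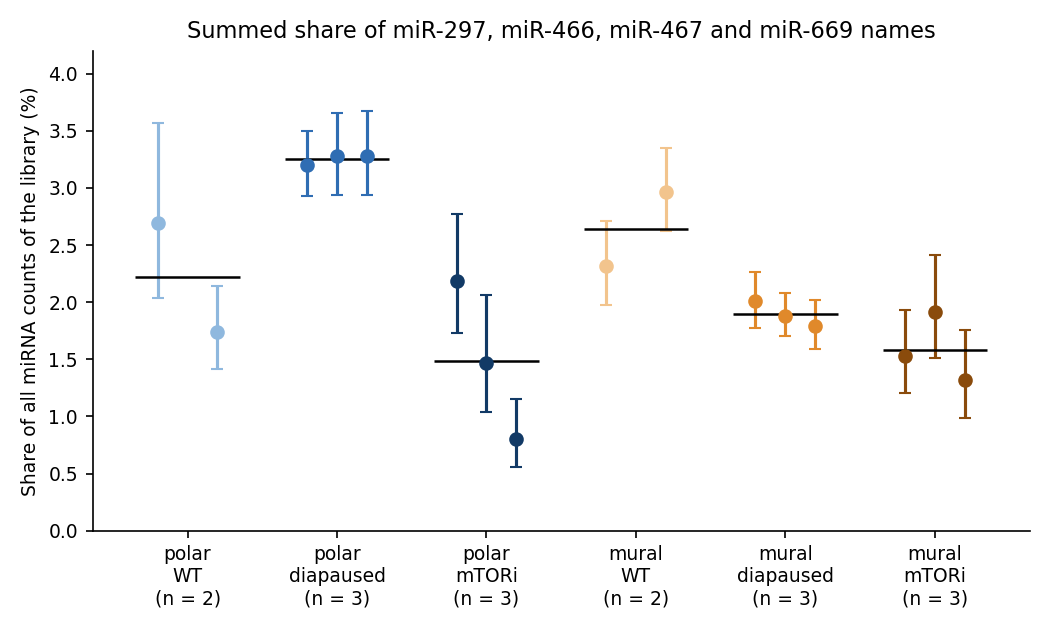
Summed share of the members by library. Points are libraries (n = 2 or 3 per group), bars their 95% Wilson intervals, black lines group means, and the vertical axis the percent of all miRNA counts. The 3 polar diapaused libraries, at 3.20 to 3.28%, lie above the other 13 on this scale.

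The share depends on what else fills a library. The cluster from miR-290 to miR-295, the main miRNAs of pluripotent and early embryonic cells, alone took 27.8777 to 55.3239% of each library. With those counts removed from the total, the members' mean share was 5.68% in polar diapaused, 5.34% in mural WT, 4.68% in polar WT, 3.77% in mural diapaused, 2.69% in mural mTORi and 2.48% in polar mTORi. The order of the group means stayed as before, but the polar diapaused libraries, at 5.77, 5.99 and 5.29%, no longer lay above all others, with mural WT replicate 2 at 5.95% and polar WT replicate 1 at 5.46%.

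The members could be tested singly only where counts allowed. Names were kept for testing if they reached a count equivalent to 10 reads in a typical library in enough libraries, and 102 of the 1978 passed. Only 3 members passed, miR-669c-5p, miR-466d-3p and miR-466f-3p. The counts were fitted with edgeR's quasi-likelihood model over all 16 libraries, with p-values adjusted by the Benjamini-Hochberg method over the 102 names, and a name was called at an adjusted p under 0.05. Levels are given in CPM after scaling of the libraries with TMM factors. Where groups are said not to overlap, or to lie wholly above or below each other, this is a description only. Groups this small can separate by chance, and how many of all tested names separate likewise is not given here.

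Of the 3 tested members only miR-466f-3p was called in any contrast, and it was lower in mTORi than in WT in both parts. Its level was 2076 and 2471 CPM in polar WT and 715, 423 and 0 CPM in polar mTORi (raw counts 4 and 12 against 2, 1 and 0). In mural WT it was 2337 and 2511 CPM, and in mural mTORi 477, 549 and 328.8 CPM (15 and 21 counts against 2, 2 and 1). All 6 mTORi libraries lay below all 4 WT libraries. They held 0 to 2 counts each, so the name passed the filter only through libraries of other groups. The calls are therefore not independent of the filter. In the polar pieces the difference was -2.56 on the log2 scale (SE 0.72, edgeR quasi-likelihood adjusted p = 0.0188). The 3 polar mTORi counts give a ratio to WT of 0.160, with a counting interval of 0.0298 to 0.558. In the mural pieces it was -2.36 (SE 0.61, edgeR adjusted p = 0.0173), with mean CPM 5.37-fold lower. Averaged over the parts it was -2.46 (SE 0.47, edgeR adjusted p = 0.00119). Polar and mural libraries entered this mean as independent, although same-numbered ones may share embryos. No fit paired them within a treatment for this contrast. Neither part's effect was shown to differ from the other, with a difference of -0.20 between them (SE 0.99, edgeR adjusted p = 0.983).

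The share of all tested names that were called sets these calls in context. In polar pieces 22.5% of the 102 names were called between mTORi and WT, in mural pieces 11.8%, and in the mean over parts 32.4%. These shares rested on single libraries too. In polar pieces 23 names were called with all libraries, 7 of 130 without polar WT replicate 1, 4 of 135 without polar WT replicate 2 and 13 of 106 without polar mTORi replicate 3. In mural pieces 12 were called with all, 6 of 121 without mural WT replicate 1, 7 of 120 without mural WT replicate 2 and 6 of 106 without mural mTORi replicate 3. In the mean, 33 fell to 12 of 135 without polar WT replicate 2 and 20 of 121 without mural WT replicate 1. Members called were 1 of 3, 1 of 3 and 1 of 3, all lower. With so few members tested, those counts say nothing of the families as a whole. The median difference of the 3 members was -0.25 in polar, -0.85 in mural and -0.55 in the mean, beside 0.18, -0.06 and -0.01 over all tested names.

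The separate polar and mural calls rested on few reads. The polar call was lost without either polar WT library (edgeR adjusted p = 0.0545 and 0.134) and without polar mTORi replicate 3 (-1.74, adjusted p = 0.101). The mural call was lost without any 1 of the 5 mural libraries compared (edgeR adjusted p = 0.0578 to 0.0972). Without the filter on low counts both separate calls were lost too (edgeR adjusted p = 0.118 in polar and 0.124 in mural pieces). The mean over parts was called in all 21 alternatives in which miR-466f-3p was tested, at -2.93 to -1.97. For this mean the name was not tested with a minimum count of 30 or with only the groups compared in the fit.

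miR-466f-3p was not called after diapause in either part. Its 3 polar diapaused libraries stood at 2265, 2430 and 2456 CPM (34, 24 and 26 counts), close to polar WT, with a mean of 2384 ± 104 against 2273 ± 279 CPM. The adjusted p for that comparison was 0.992 in the edgeR fit. In mural diapaused libraries it stood at 1306, 1042 and 1425 CPM (13, 17 and 17 counts), below both mural WT libraries, with a difference of -0.95 on the log2 scale (SE 0.47) that was not called (edgeR adjusted p = 0.281). Of all tested names 7.84% were called between diapaused and WT in polar, 9.8% in mural pieces and 18.6% in the mean of the parts, and no member was among them, nor did any of the 3 reach an unadjusted p under 0.05. DESeq2 called 0 of the 3 members in these contrasts as well. The effect of diapause on miR-466f-3p differed by 0.99 between the parts (SE 0.70), which was not called (edgeR adjusted p = 0.666). For the 2 tests of whether a treatment acted differently in the 2 parts, 0% of names were called, with 12 names at an unadjusted p under 0.05 for diapause and 14 for mTORi, none of them members. DESeq2 called 0 and 1 names in those tests.

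Between the 2 ways of pausing, miR-466f-3p was called in the polar pieces. It was 2.60 higher on the log2 scale in diapaused than in mTORi blastocysts (SE 0.64, edgeR adjusted p = 0.0127), and the counts of 84 and 3 give a ratio of 6.29 (counting interval 2.08 to 31.1). In that comparison 15.7% of names were called. The polar mTORi libraries held 2, 1 and 0 counts, so here too the name passed the filter only through libraries of other groups. Without the filter on low counts the difference was not called (edgeR adjusted p = 0.069), nor with only the groups compared in the fit. Without polar mTORi replicate 3 the difference was 1.75 and was not called (edgeR adjusted p = 0.0833). In the mural pieces the difference was 1.41 (SE 0.59, edgeR adjusted p = 0.157), where 0.98% of names were called and the 2 groups did not overlap. These comparisons share the mTORi libraries with those against WT.

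Between the parts, miR-466f-3p was 0.92 higher on the log2 scale in polar than in mural diapaused libraries (SE 0.42). The libraries did not overlap, which without a count of other names that separate likewise is no test. The difference was not called (edgeR adjusted p = 0.137), while library sizes without TMM (1.38, adjusted p = 0.0382) and DESeq2 (1.08, adjusted p = 0.0347) called it. No member was called between polar and mural pieces in WT, where 10.8% of names were called, in diapaused, where 18.6% were, in mTORi, where 4.9% were, or in the mean over treatments, where 27.5% were. At an unadjusted p under 0.05, edgeR gave 1 member in diapaused (miR-466f-3p) and 0 in the other 3 comparisons, where DESeq2 called 0 too.

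**Figure D3:**
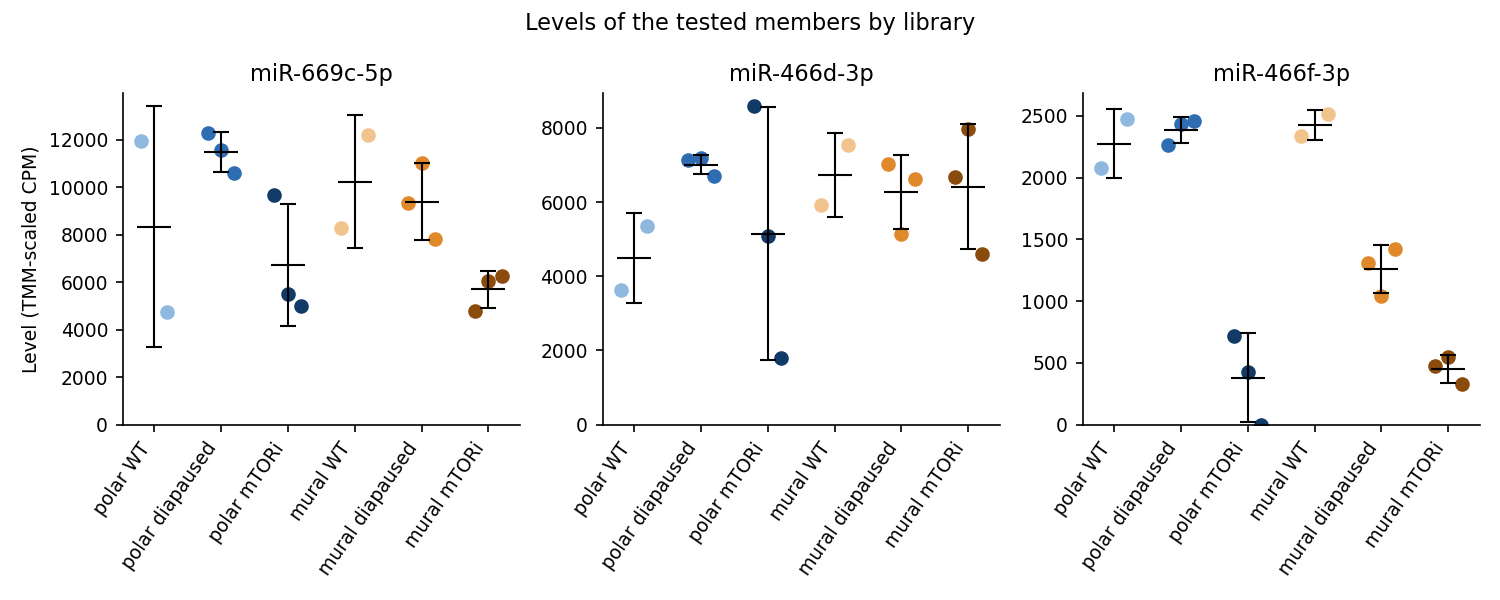
Levels of the 3 tested members. Points are libraries, horizontal lines group means and bars 1 SD (n = 2 for WT, n = 3 otherwise), in TMM-scaled CPM, with an axis of its own for each miRNA. miR-466f-3p lies at 0 to 715 CPM in the 6 mTORi libraries and at 1042 CPM or more in the other 10.

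miR-669c-5p, the most abundant member, was called in none of the 14 contrasts. Its level was 11937 and 4736 CPM in polar WT, 12256, 11542 and 10582 in polar diapaused, and 9657, 5498 and 4987 in polar mTORi. The polar diapaused libraries lay above the polar mTORi ones, and polar WT spread across both. It was 8257 and 12198 CPM in mural WT, 9340, 11028 and 7793 in mural diapaused, and 4774, 6039 and 6247 in mural mTORi. All mural mTORi libraries lay below the other mural ones. The largest of its 14 differences in size was -0.85 on the log2 scale for mTORi against WT in mural pieces (SE 0.41, edgeR adjusted p = 0.175). For diapaused against mTORi it was 0.77 in polar (SE 0.37, edgeR adjusted p = 0.175) and 0.73 in mural pieces (SE 0.37, adjusted p = 0.214). These 3 differences kept their sign in all alternatives tried, and none was called.

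miR-466d-3p was also called in none. It stood at 3633 and 5353 CPM in polar WT, 7127, 7189 and 6708 in polar diapaused, and 8584, 5075 and 1781 in polar mTORi. In mural pieces it was 5920 and 7534 CPM in WT, 7030, 5147 and 6620 in diapaused, and 6683, 7961 and 4603 in mTORi, so these 3 groups overlapped. Its lowest value was that of polar mTORi replicate 3, from 5 counts. Its 14 differences lay between -0.54 and 0.71 on the log2 scale (SE 0.27 to 0.69), and the lowest edgeR adjusted p was 0.445. With SEs of that size, changes as large as those given for miR-669c-5p were not detectable.

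Within the families, miR-466f-3p held its smallest part in mTORi. Its share of the members' counts was 11.2% ± 3.85 in polar WT and 9.27% ± 1.13 in mural WT (n = 2 each). It was 7.93% ± 0.741 in polar and 5.35% ± 0.971 in mural diapaused, and 2.04% ± 1.77 in polar and 2.69% ± 0.445 in mural mTORi (n = 3 each). The mTORi libraries ranged from 0 to 3.13%, below the 4.51% of the lowest other library. miR-669c-5p held 34.3 to 43.6% of the members' counts by group mean and miR-466d-3p 22.6 to 38.1%. In mural pieces the share of miR-466d-3p was 25.5% ± 0.071 in WT and 38.1% ± 6.63 in mTORi, without overlap. Its level did not rise with that share, at a mean of 6727 CPM in mural WT and 6416 CPM in mural mTORi. That difference was -0.06 on the log2 scale (SE 0.46) and was not called. A share of the members' counts also depends on the counts of the other members. In polar pieces the shares of miR-466d-3p overlapped, at 22.6% ± 10.8 in WT and 30.4% ± 10.9 in mTORi. As the most abundant names, miR-669c-5p and miR-466d-3p set most of the summed share. Since miR-466f-3p alone among the tested members also has a copy outside Sfmbt2, the intron's own part in its fall was not tested.

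**Figure D4:**
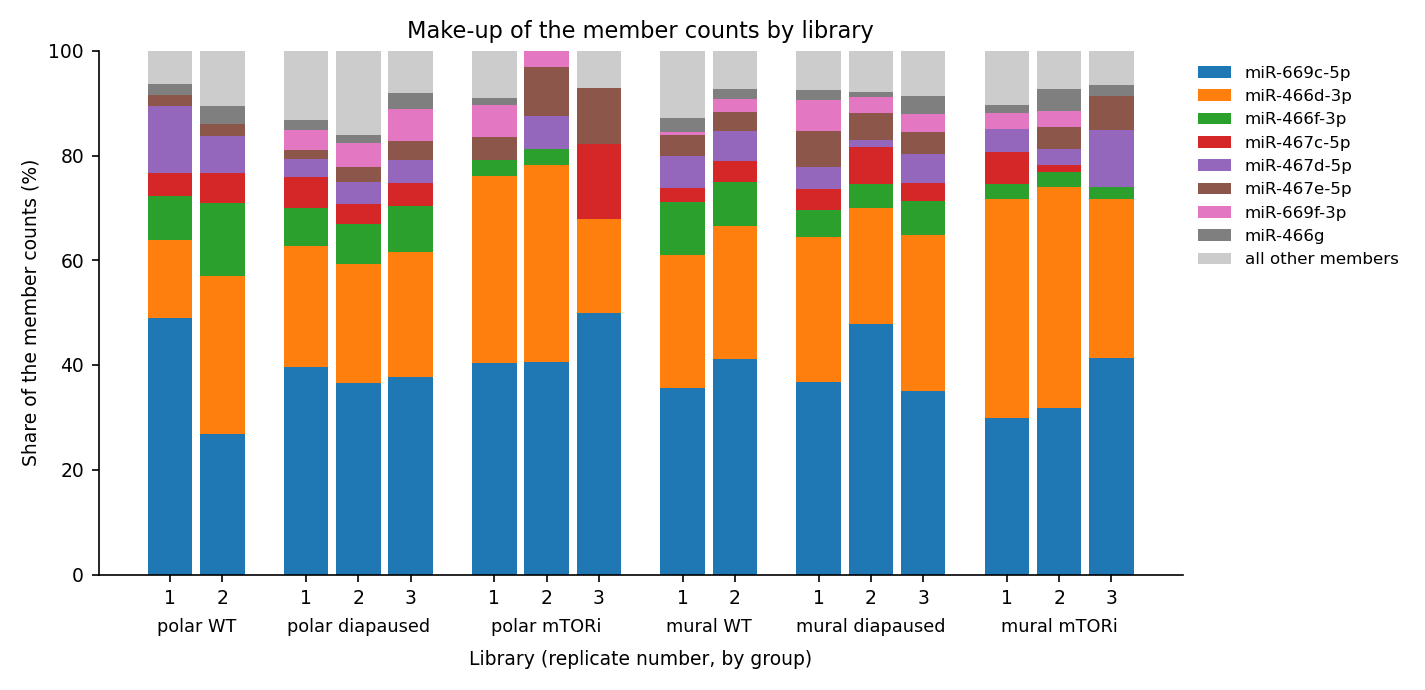
Make-up of the members' counts by library. Stacked bars give the percent of each library's member counts held by the top 8 members and by all others, by group and replicate number. miR-669c-5p and miR-466d-3p fill 57.0 to 78.1% of every bar, and the miR-466f-3p band is thinnest in mTORi, where it reaches at most 3.13%.

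Members below the filter are described by their counts, with no test in the fit above. miR-669f-3p was at 0 in both polar WT libraries and had 18, 14 and 18 counts in polar diapaused. Against 3 counts over the polar WT group, the floor that 0 of 6684 counts allows, its share of the polar diapaused counts was at least 3.37-fold higher. Polar mTORi had 4, 1 and 0 counts. In mural pieces it had 1 and 6 counts in WT, 15, 12 and 9 in diapaused, and 2, 2 and 0 in mTORi, with a share 1.60-fold that of WT in diapaused (counting interval 0.704 to 4.27). Fitted by edgeR with no filter on low counts, the polar difference between diapaused and WT was not called (adjusted p = 0.167).

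miR-467d-5p had 6 and 6 counts in polar WT, 16, 13 and 13 in polar diapaused and 0, 2 and 0 in polar mTORi. Its share in polar mTORi was 0.127 of that in polar WT (counting interval 0.0138 to 0.572). In mural pieces it had 9 and 14 counts in WT, 11, 5 and 15 in diapaused, and 3, 2 and 5 in mTORi. Fitted by edgeR with no filter on low counts, the polar difference between mTORi and WT was not called (adjusted p = 0.157).

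miR-467c-5p had 2 and 5 counts in polar WT, 27, 12 and 13 in polar diapaused, and 0, 0 and 4 in polar mTORi. Its mural counts were 4 and 10 in WT, 10, 27 and 9 in diapaused, and 4, 1 and 0 in mTORi. miR-467e-5p had 3 counts in polar WT, 28 in polar diapaused and 9 in polar mTORi, and 15, 47 and 6 in the mural groups in the same order. Its ratio of polar mTORi to polar WT was 2.29 (counting interval 0.572 to 13.2), so a change was not detectable at this depth. miR-466g had 4, 23 and 1 counts in the polar groups and 9, 17 and 5 in the mural ones.

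Several of the rarer members had many of their counts in the polar diapaused libraries, which are also among the deeper ones. miR-466n-3p had 20 of its 28 counts there, miR-467e-3p 16 of 28, miR-466m-3p 14 of 28 and miR-669b-3p 11 of 16. Single libraries differed widely. In replicates 1, 2 and 3 the counts were 12, 4 and 4 for miR-466n-3p and 7, 9 and 0 for miR-467e-3p. They were 10, 4 and 0 for miR-466m-3p and 1, 10 and 0 for miR-669b-3p. The mural diapaused group, with 47472 counts against 33059, held 3, 5, 5 and 3 counts of the same names. miR-669a-3-3p was spread more evenly, with 8 counts in polar and 8 in mural diapaused, 7 in mural WT and 4 in mural mTORi. miR-669h-5p had 9 counts in each diapaused group. miR-297b-5p had 7 in polar diapaused and 4 in mural WT. Of the 35 detected members, 19 to 27 were found in each polar diapaused library (9049 to 14500 counts in all). In the shallower polar mTORi libraries (2184 to 3501 counts) 5 to 9 were found. Mural diapaused libraries (12607 to 20051 counts) had 17 to 24, and mural mTORi libraries (3490 to 4386 counts) had 9 to 12. Polar WT had 9 of them at 1744 counts and 14 at 4940. A difference in detection beyond depth was not tested.

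By family, miR-669 names took 1.54% ± 0.026 of polar diapaused counts and 0.908% ± 0.136 of mural diapaused counts (n = 3 each). miR-466 names took 1.26% ± 0.0034 and 0.696% ± 0.115, and miR-467 names 0.428% ± 0.032 and 0.277% ± 0.0226. These shares are of raw counts and carry no test. Their SDs are spreads of 3 values and leave out counting error. The polar diapaused miR-466 shares rest on 182, 120 and 114 counts, so the SD of 0.0034 is not their precision. In TMM-scaled CPM, miR-669c-5p and miR-466d-3p overlapped between the 2 groups, with means 1.22-fold and 1.12-fold higher in polar.

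The miRNAs most like miR-669c-5p over the 16 libraries, among the 99 tested names outside the families, were miR-1981-5p (Spearman rho of CPM 0.72), miR-5099 (0.72), miR-93-5p (0.59), miR-28a-3p (0.58) and miR-291b-3p (0.56). Among the families, miR-466f-3p had a rho of 0.51 with it and miR-466d-3p 0.35. These are descriptions over libraries that share depth and treatment.

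Other miRNA clusters in imprinted regions were counted beside the families. In contrast to the members, which held counts in both parts, the Dlk1-Dio3 names had 547 counts in polar and 11 in mural libraries, with 49 of 102 names detected. The Gnas names, miR-296 and miR-298, had 243 and 194, the H19/Igf2 names 64 and 17, and the Mest names 13 and 4. Of these lists 7 names were tested, 4 of Dlk1-Dio3 and 3 of Gnas. All 4 Dlk1-Dio3 names were higher in polar pieces in the mean over treatments, among them miR-379-5p (6.94 on the log2 scale, SE 0.80, edgeR adjusted p = 7.2e-05) and miR-127-3p (5.41, SE 1.09, adjusted p = 0.00199). The 4 names passed the filter through polar libraries only. With 11 mural counts over all 102 names, these log2 values rest on mural levels at or near 0 and are not measured folds. With mTORi in the mean over parts, 2 Gnas names fell, miR-298-5p by 2.82 (SE 0.77, edgeR adjusted p = 0.0117) and miR-296-3p by 2.12 (SE 0.71, adjusted p = 0.0314). In that comparison 1 of 3 tested members was called lower, and 32.4% of all 102 tested names were called in either direction. miR-298-5p was also higher in diapaused than in mTORi polar pieces (3.90, SE 1.10, edgeR adjusted p = 0.026). Against WT in either part alone, none of the 7 was called after diapause or mTORi.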

How the data were processed

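The deposited values are counts, whole numbers per mature miRNA name without normalization, in 16 libraries. Per the labels' protocols, adapters carried unique molecular identifiers, PCR ran for 12 to 20 cycles, RNA was not size-selected and reads were 75 nt. Per the submitters' processing notes, the genome build was GRCm38. For the aligner, counting tool, annotation version, collapsing of identifiers and treatment of multi-mapping reads: not given in the sources used here.

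Shares are of all miRNA counts of a library. Precursor positions came from RefSeq GRCm38.p6 and were the same in the GENCODE annotation for 81 of 81. Tests used R 4.3.3 and edgeR 4.0.16: filterByExpr (minimum count 10, minimum total 15), TMM, a mean for each of 6 groups and quasi-likelihood tests of 14 contrasts, tested first on simulated counts. The tested names held 92.83 to 97.61% of each library's counts. The floor of a 0 is 3 counts. Alternatives were other scalings, filters and samples, blocking, and DESeq2 1.42.0. Named are all tested members and the 15 with most counts. Members and lists were chosen with earlier results of these data known. Deviations from the group means were correlated over 0.1 in 7 of the 8 same-numbered polar and mural pairs. The correlation was 0.31 in both WT pairs, which with 2 libraries a group give the same value. It was 0.11 to 0.18 in the 3 mTORi pairs and -0.01 to 0.36 in the 3 diapaused pairs.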

Additional observations from a re-analysis of the deposited data

How the results depend on the processing

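The sign of the 4 called differences of miR-466f-3p, and of the 7 uncalled ones of miR-466f-3p and miR-669c-5p with an unadjusted p under 0.1, held in every alternative that tested them. The number of members called in the mTORi contrasts did not. Without the filter on low counts it was 0 in place of 1 for mTORi against WT in polar and in mural pieces and for diapaused against mTORi in polar pieces. With a minimum count of 30, and with only names wholly inside Sfmbt2, it was 0 in these 3 and in the mean over parts, because miR-466f-3p was then not among the names counted. With only the groups compared in the fit it was 0 for mTORi against WT in polar pieces and in the mean, where miR-466f-3p was not tested, 0 for diapaused against mTORi in polar pieces (adjusted p = 0.0667), and 1 in place of 0 for diapaused against WT in polar pieces and in the mean. That 1 was miR-669f-3p, which is at 0 in polar WT and passed the filter through the diapaused libraries. Library size alone and DESeq2 gave 1 in place of 0 for polar against mural in diapause. Leaving out single libraries gave 0 to 2 members for mTORi against WT in polar pieces and for diapaused against mTORi in polar pieces, 0 to 1 in mural mTORi, 1 to 2 in the mean, and 0 in the other 10 contrasts. The second member was miR-467d-5p, whose only polar mTORi counts are in the library left out. The number of all names called moved with single libraries as well, to 2 to 12 (8 with all) for diapaused against WT in polar and 0 to 14 (10) in mural pieces, 7 to 19 (19) in their mean, 4 to 14 (11), 5 to 22 (19) and 0 to 7 (5) for polar against mural in WT, diapaused and mTORi, and 4 to 24 (16) and 0 to 8 (1) for diapaused against mTORi in polar and mural pieces. With 2 WT libraries a group, a lone one is assumed to vary like the others. The replicate number as a block changed none of these numbers (1 member in polar mTORi against WT, -2.54 for miR-466f-3p). A block of same-numbered polar and mural libraries within each treatment changed no call between the parts either.

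The summed share without the cluster from miR-290 to miR-295 in the total was 4.68, 5.68 and 2.48% in polar WT, diapaused and mTORi and 5.34, 3.77 and 2.69% in the mural groups. Without miR-669c-5p it was 1.33% in polar WT, 2.02% in polar diapaused, 1.62% in mural WT, 1.14% in mural diapaused, 1.05% in mural mTORi and 0.859% in polar mTORi. With names wholly inside Sfmbt2 it was 1.98, 2.97 and 1.45% in polar WT, diapaused and mTORi and 2.38, 1.78 and 1.54% in the mural groups. With TMM-scaled totals, added after seeing the data, it was 2.11, 3.02 and 1.58% in the polar and 2.64, 2.36 and 1.67% in the mural groups, so that mural diapaused came before polar WT. Without single libraries the group means of the polar pieces ranged from 1.74 to 2.69% (WT), 3.24 to 3.28% (diapaused) and 1.13 to 1.83% (mTORi), and those of the mural pieces from 2.32 to 2.96%, 1.83 to 1.94% and 1.42 to 1.72% in the same order. With 1744 to 20051 counts a library, 32 of the 35 detected members were too rare to be tested.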
